A study of Mus musculus with 6 samples.

Results

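The genes described here are the 10 clock repressor genes Per1, Per2, Per3, Cry1, Cry2, Nr1d1, Nr1d2, Ciart, Bhlhe40 and Bhlhe41. They were chosen by name, and each matched 1 Ensembl gene among the 55401 in the deposited table of counts. Poly(A) RNA had been sequenced from fresh liver of C57BL/6 mice, with 1 library per sample. The HFCF group (3 libraries) came from mice fed fat, cholesterol and fructose at high levels. The OP group (3 libraries) came from mice treated with OP, which the title of the series names as okra polysaccharide, in a study of metabolic-associated fatty liver disease. The labels of the OP samples give no diet, dose or duration. For neither group do they give sex, age, feeding state or the time of day at which tissue was taken, or whether a group's 3 samples came from separate animals. The p-values thus measure only the spread among samples, some of which may be technical. A difference in sampling time between the groups cannot be told apart from the treatment.

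The circadian clock is a feedback loop of transcription. CLOCK and BMAL1 bind E-box sequences and drive the Per, Cry, Nr1d, Ciart and Bhlhe genes, whose proteins then shut that drive down. PER and CRY proteins enter the nucleus as complexes and block CLOCK and BMAL1 directly. REV-ERB alpha and beta, the heme-binding nuclear receptors encoded by Nr1d1 and Nr1d2, repress Bmal1 and many genes of liver lipid metabolism through the NCoR and HDAC3 corepressor. CHRONO, encoded by Ciart, binds the CLOCK-BMAL1 complex, and DEC1 and DEC2, encoded by Bhlhe40 and Bhlhe41, occupy E-boxes themselves. In liver each of these transcripts is known to have its own peak time in the day, and Per1 and Per2 also respond to hormones, feeding and temperature.

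The promoters were searched for the letters of elements known from this loop and from signals that act on it. RefSeq promoter windows of 300 bases (250 before and 50 after the start site, GRCm38.p6) matched 8 of the 10 genes, with 9 windows because Per1 has 2 start sites; Per2 and Bhlhe40 had no entry. Motifs were searched on both strands as exact letters. The E-box CACGTG lay in 4 of the 9 windows (Ciart, Bhlhe41, Cry1 and 1 of the 2 for Per1), against 7.15% of all 32851 windows. The related E-prime box CACGTT, which reads AACGTG on the other strand, lay in 3 windows (Cry1, Cry2 and Nr1d1), against 4.68% of all. The D-box, searched as TTATGTAA or TTACGTAA and bound by PAR bZIP factors such as DBP, lay in the Per3 window, against 1.06% of all. The element bound by ROR and REV-ERB (TAGGTCA or TGGGTCA, 6.45% of all), the cAMP response element TGACGTCA (1.79%) and the heat shock element GAANNTTC (7.86%) had no match in the 9 windows. No matches shared a base. A match is a run of letters and not a site shown to be bound.

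The 250 bases before the start site are printed for Cry2 and Nr1d1, the members with a window that fell in OP, and for Ciart and Per3, which were not called and hold the most E-boxes and D-boxes. Each is written 5′ to 3′ on the gene's strand, with motif matches in capitals, and lies on the minus strand of GRCm38.p6 at chr2:92434070-92434319 (Cry2), chr11:98775378-98775627 (Nr1d1), chr3:95882229-95882478 (Ciart) and chr4:151044666-151044915 (Per3). The submitters name GRCm39, another build.
Cry2: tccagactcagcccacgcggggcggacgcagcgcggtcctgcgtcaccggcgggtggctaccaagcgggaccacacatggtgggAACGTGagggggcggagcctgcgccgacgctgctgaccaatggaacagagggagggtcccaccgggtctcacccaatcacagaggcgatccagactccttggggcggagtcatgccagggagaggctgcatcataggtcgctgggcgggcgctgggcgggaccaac
Nr1d1: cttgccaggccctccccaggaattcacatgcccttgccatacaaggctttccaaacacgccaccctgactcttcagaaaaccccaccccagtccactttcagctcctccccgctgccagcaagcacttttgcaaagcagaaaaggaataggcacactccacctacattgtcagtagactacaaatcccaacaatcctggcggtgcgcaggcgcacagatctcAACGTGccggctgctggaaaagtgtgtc
Ciart: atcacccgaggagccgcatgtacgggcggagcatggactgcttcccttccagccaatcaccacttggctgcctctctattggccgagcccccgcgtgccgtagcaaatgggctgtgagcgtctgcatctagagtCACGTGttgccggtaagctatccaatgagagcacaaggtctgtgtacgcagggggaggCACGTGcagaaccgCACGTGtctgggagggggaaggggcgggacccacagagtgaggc
Per3: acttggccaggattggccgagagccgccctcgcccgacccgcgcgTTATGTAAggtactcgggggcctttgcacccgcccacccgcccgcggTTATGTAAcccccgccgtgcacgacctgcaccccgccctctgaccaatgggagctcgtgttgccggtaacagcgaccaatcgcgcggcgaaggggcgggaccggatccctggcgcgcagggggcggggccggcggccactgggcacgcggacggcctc
The Cry2 and Nr1d1 windows each hold a single E-prime box, which begins 166 and 28 bases before the start site. The Ciart window holds 3 E-boxes, at 116, 58 and 44 bases, and the Per3 window 2 D-boxes, at 205 and 158 bases.

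Total counts ranged from 46459980 to 61918541 per library, and 3 counts, the most that a count of 0 allows, stood at 0.0472 to 0.0625 CPM (counts scaled by library total and TMM factor). A count of 4 was more frequent than 3 or 5 in all 6 libraries, so a single read pair may stand for more than 1 count. The lowest member, Bhlhe41, had 110 to 401 counts per library. The share of counts in mitochondrial mRNAs was 18.3 ± 4.01% in HFCF and 9.31 ± 4.44% in OP (SD, n = 3). Of the marker lists, that of hepatocytes had the highest summed level in each library, which ran from 32300.0 to 53800.0 CPM in HFCF and from 49770.0 to 77180.0 CPM in OP. Of its 6 genes edgeR called 1 higher in OP, Ttr (log2 1.13), and 1 lower, Cps1 (-1.43). The summed levels of 5 erythroid markers ran from 941 to 1767 CPM in HFCF and from 192 to 415 CPM in OP, with 4 of 5 lower. Those of 5 adipocyte markers ran from 0 to 4.66 CPM in HFCF and from 12.4 to 65.0 CPM in OP, most of it Cfd, with Adipoq and Plin1 at 0 in HFCF replicates 1 and 2 and OP replicate 1; edgeR called 0 of the 3 tested, 1 had an unadjusted p under 0.05, and DESeq2 and limma-voom called 0. The 7 macrophage markers summed to 234 to 307 CPM in HFCF and 128 to 218 CPM in OP. No gene among 7 macrophage, 7 stellate, 6 sinusoidal endothelial, 5 cholangiocyte, 8 lymphocyte and 5 neutrophil markers was called by edgeR; 6 of them had an unadjusted p under 0.05, DESeq2 called 4 and limma-voom 0. An unadjusted p under 0.05 was common: Per1, at an edgeR unadjusted p of 0.0348, held place 3742 of the 17394 tested genes by p. Counts at that level, here and in the lists below, stand beside this background. The part of cell makeup in the results below was not tested. Values from a fit with the mitochondrial share as a covariate stand beside the called members and the lists whose calls it moved. For the members that were not called they are given at the end, with the other alternatives. In whole liver, fewer cells of a type and less RNA per cell cannot be told apart.

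The comparison asked which clock repressors differed between OP and HFCF livers. Of the 10, Per2 rose 3.06-fold in OP, Cry2 fell 1.86-fold and Nr1d1 fell 1.73-fold, and the other 7 did not pass the test. Calls required a p under 0.05 after Benjamini-Hochberg adjustment over the 17394 genes tested with edgeR (quasi-likelihood test), among which were all 10 members. That rule called 6.73% of all tested genes, with 3.26% higher and 3.47% lower in OP. The groups did not overlap for 4 of the 10 members, the 3 called and Bhlhe41, against 31.2% of all tested genes. The median log2 fold change of the 10 was -0.12 with 5 above 0 and 5 below, and that of all tested genes was 0.02. The set therefore had no common direction.

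**Figure D1:**
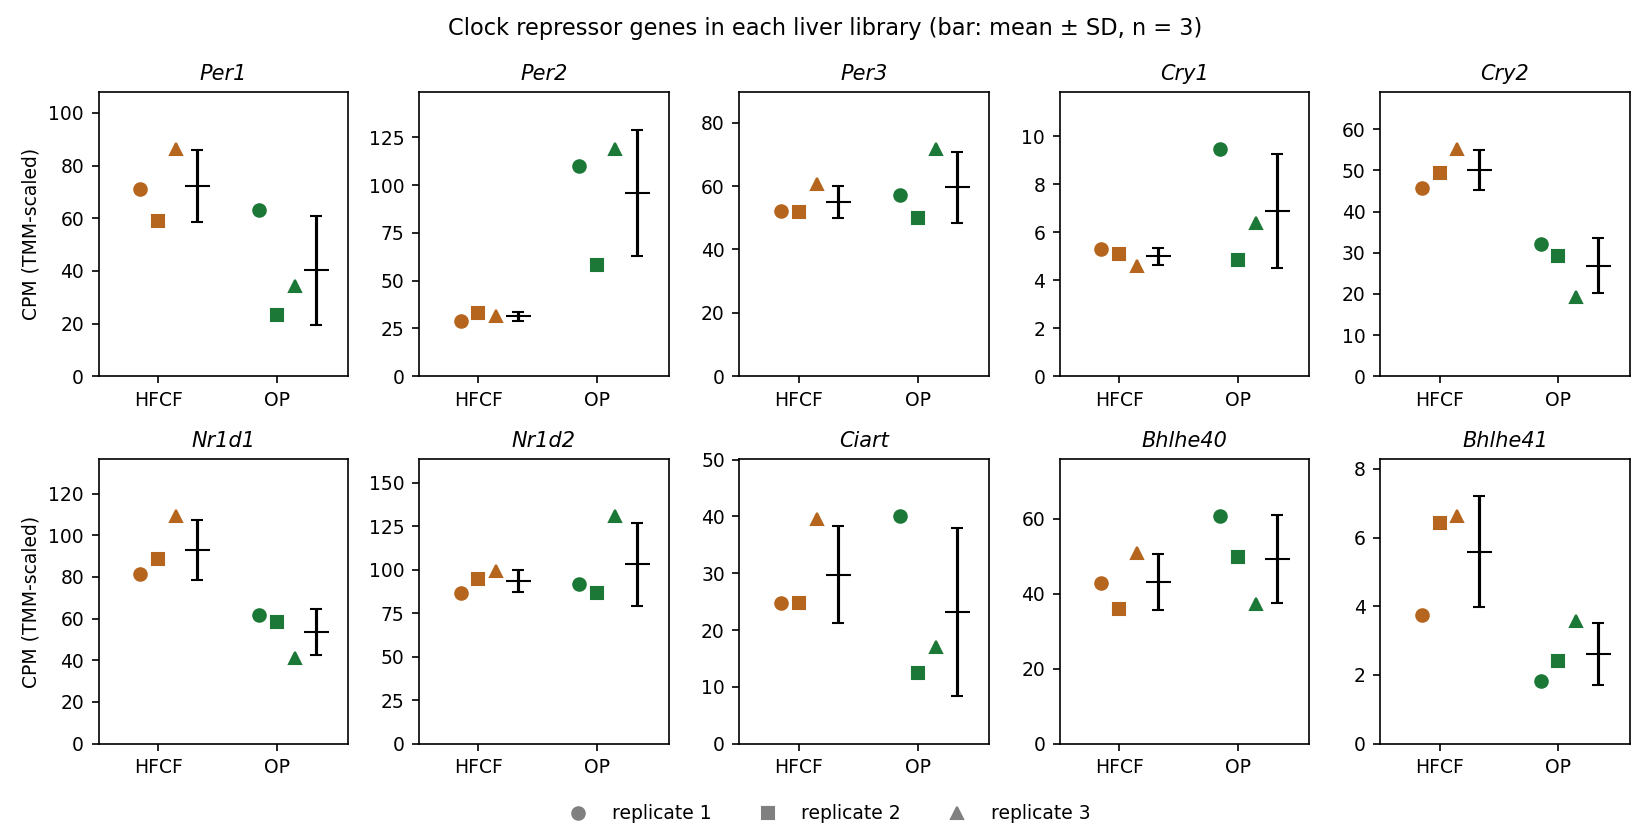
Expression of each clock repressor gene in the 3 HFCF and 3 OP liver libraries, in CPM on TMM-scaled library sizes (y axis, from 0, its own range per gene). Symbols are single libraries by replicate number and bars the mean ± SD; the groups are apart for Per2, Cry2, Nr1d1 and Bhlhe41 and overlap for the other 6 genes.

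Per2 gave the clearest change. Its level was 28.9, 33.2 and 31.7 CPM in HFCF replicates 1 to 3, and 110.0, 57.9 and 119 CPM in OP replicates 1 to 3. All OP libraries lay above all HFCF libraries, and OP replicate 2 was by far the lowest of its group. The fitted increase was 3.06-fold (log2 1.61 ± 0.257, SE; 95% interval 1.02 to 2.2; edgeR adjusted p = 0.0131). In absolute size this log2 change exceeded that of 95.7% of the tested genes. Leaving out single libraries kept the change between 1.43 and 1.87, but the call was lost without HFCF replicate 1 (adjusted p = 0.0978), HFCF replicate 2 (0.0992) or OP replicate 1 (0.0641). Fitted with mitochondrial share as a covariate, the log2 change was 1.94 and the edgeR adjusted p 0.0604.

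Neither of the other period genes was called. Per1, the period gene that responds fastest to hormonal signals, stood at 71.3, 59.0 and 86.4 CPM in HFCF and at 63.3, 23.2 and 34.2 CPM in OP. OP replicate 1 lay inside the HFCF range, while the other OP libraries lay below it. The log2 change was -0.85 ± 0.337 (95% interval -1.61 to -0.08) and was not called by edgeR (adjusted p = 0.162); DESeq2 called it at an adjusted p of 0.0396. Without OP replicate 1 the estimate was -1.33, the furthest from 0 of the estimates with 1 library left out. Per3, a period gene that is dispensable for rhythm in many settings, stood at 52.2, 51.9 and 60.7 CPM in HFCF and 57.1, 49.9 and 71.7 CPM in OP. Its groups overlapped, and the 95% interval of its log2 change ran from -0.26 to 0.50, which leaves room for a rise of up to 1.42-fold.

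Of the cryptochromes, Cry2 fell and Cry1 was not called. Cry2, a main repressor of CLOCK and BMAL1, stood at 45.6, 49.4 and 55.2 CPM in HFCF and at 32.2, 29.1 and 19.3 CPM in OP. The groups did not overlap, and OP replicate 3 was the lowest library. The log2 change was -0.90 ± 0.201 (95% interval -1.36 to -0.44), a 1.86-fold decrease (edgeR adjusted p = 0.0373). Cry1, the other cryptochrome and the one that peaks later in the cycle, was present at 5.29, 5.11 and 4.61 CPM in HFCF and 9.48, 4.83 and 6.37 CPM in OP. OP replicate 1 was its highest library and OP replicate 2 lay within the HFCF range. Its log2 change of 0.46 ± 0.265 was not called (edgeR adjusted p = 0.321). Fitted with mitochondrial share as a covariate, the log2 change of Cry2 was -1.47 (edgeR adjusted p = 0.0363). With total counts as the scale or with no filter on low counts its edgeR adjusted p was 0.0618 and 0.0557. Among fits with 1 library left out, the call of Cry2 was kept only without OP replicate 3; without each of the other 5 libraries its edgeR adjusted p was 0.0691 to 0.157, at log2 changes of -1.05 to -0.82.

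Of the REV-ERB genes, Nr1d1 fell and Nr1d2 was not called. Nr1d1 stood at 81.3, 88.7 and 109 CPM in HFCF and 61.6, 58.6 and 40.9 CPM in OP. The groups did not overlap, with OP replicate 3 again the lowest. The log2 change was -0.79 ± 0.195 (95% interval -1.24 to -0.35), a 1.73-fold decrease, at an edgeR adjusted p of 0.0488. This call was lost whichever library was left out, with edgeR adjusted p of 0.0641 to 0.177 and log2 changes of -0.90 to -0.63. It was also lost with total counts as the scale (adjusted p = 0.0825) or with no filter on low counts (0.0744), and a mitochondrial covariate gave a log2 change of -1.37 (edgeR adjusted p = 0.0269). OP replicate 3, the lowest library for both Cry2 and Nr1d1, held 14.4% mitochondrial mRNA against 7.48% and 6.08% in the other OP libraries. Nr1d2 stood at 86.5, 94.7 and 99.0 CPM in HFCF and 91.9, 86.6 and 131 CPM in OP, where OP replicate 3 was the highest library. Its log2 change was 0.14 ± 0.18 (95% interval -0.27 to 0.55; edgeR adjusted p = 0.674).

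Nr1d1 overlaps a neighbour. In GENCODE M21 its exons share 263 bases, 8.55% of its exon length, with Thra on the opposite strand, which encodes a thyroid hormone receptor. Thra fell as well, from 23.4 ± 2.10 to 13.5 ± 1.15 CPM (log2 -0.79 ± 0.143; edgeR adjusted p = 0.0196). The library protocol keeps strand, but whether counting used it is not stated in the labels, so reads from the shared bases cannot be assigned to either gene. With the counts of both genes summed, the log2 change was -0.79 and the edgeR adjusted p 0.0357. Cry2, Bhlhe40 and Bhlhe41 also share exon bases on the opposite strand with noncoding genes (D930015M05Rik, 0610040F04Rik and Gm43909). Each of these partners had at most 59 counts in a library, and adding them changed no call.

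Ciart, Bhlhe40 and Bhlhe41 act on E-box transcription directly, and none was called. Ciart stood at 24.7, 24.8 and 39.5 CPM in HFCF and 40.0, 12.5 and 17.1 CPM in OP. OP replicate 1 held its highest level and OP replicate 2 its lowest, a 3.20-fold range within 1 group, and its 95% interval was wide (-1.28 to 0.57). Bhlhe40 stood at 42.7, 35.8 and 50.8 CPM in HFCF and 60.6, 49.9 and 37.2 CPM in OP, with overlapping groups (log2 0.19 ± 0.209; edgeR adjusted p = 0.619). Bhlhe41 stood at 3.73, 6.42 and 6.62 CPM in HFCF and 1.83, 2.42 and 3.58 CPM in OP. All OP libraries lay below all HFCF libraries, by a narrow margin between OP replicate 3 and HFCF replicate 1. Its log2 change was -1.10 ± 0.334 (edgeR adjusted p = 0.0834), and DESeq2 called it at an adjusted p of 0.0169.

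**Figure D2:**
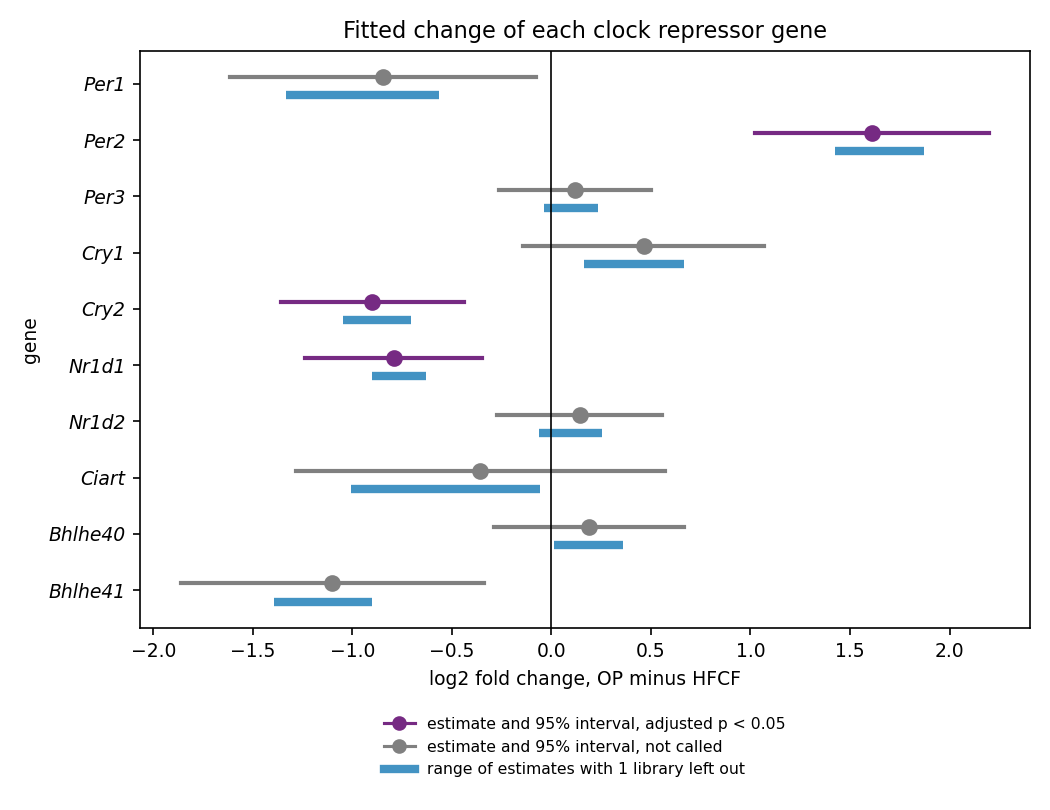
Fitted log2 fold change of each gene, OP minus HFCF (x axis), with its 95% interval (thin line) and the range of estimates when single libraries were left out (thick blue line). Per2 lies at 1.61, Cry2 at -0.90 and Nr1d1 at -0.79, the 3 genes called; the intervals of Per3, Cry1, Nr1d2, Ciart and Bhlhe40 include 0.

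**Figure D3:**
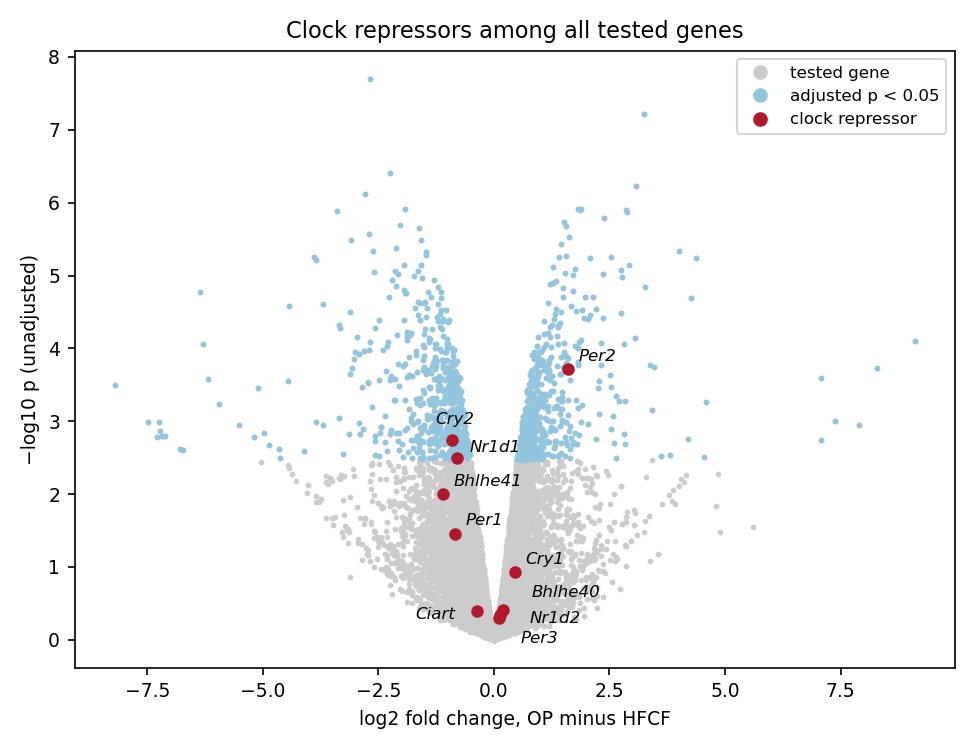
Log2 fold change (x axis) against −log10 of the unadjusted p (y axis) for the 17394 tested genes, with called genes in blue and the 10 clock repressors in red. Per2 (unadjusted p = 0.000192) stands within the called genes on the right, and Cry2 and Nr1d1 lie near their lower edge on the left.

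Ratios between paralogs in the same library do not depend on library scaling. The log2 ratio of Per1 to Per2 counts was 1.30, 0.83 and 1.45 in HFCF and -0.80, -1.32 and -1.80 in OP, so Per1 had more counts than Per2 in each HFCF library and fewer in each OP library. The mean difference was -2.50. The log2 ratio of Per2 to Per3 went from -0.81 ± 0.151 (SD) to 0.63 ± 0.374, and that of Per1 to Per3 went from 0.38 ± 0.173 to -0.68 ± 0.714. The Cry1 to Cry2 ratio went from -3.32 ± 0.241 to -1.98 ± 0.533, a difference of 1.34. The Nr1d1 to Nr1d2 ratio went from -0.01 ± 0.134 to -0.94 ± 0.638, with OP replicate 3 at -1.68 and the other OP libraries at -0.58 and -0.56. For these 5 pairs the groups did not overlap, and each had an exact two-sided permutation p of 0.1, the smallest that 3 against 3 libraries can give (adjusted p = 0.12 over the 6 pairs). They are not 5 separate observations: the Per ratios share genes, and all but Per1/Per3 hold a gene called above. Groups did not overlap for 31.2% of single tested genes, and the share among other pairs of genes was not computed. The Bhlhe40 to Bhlhe41 ratio overlapped between groups (2.98 ± 0.52 and 4.26 ± 0.839; exact permutation p = 0.2, adjusted p = 0.2). No pair could pass a threshold of 0.05 in this design.

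**Figure D4:**
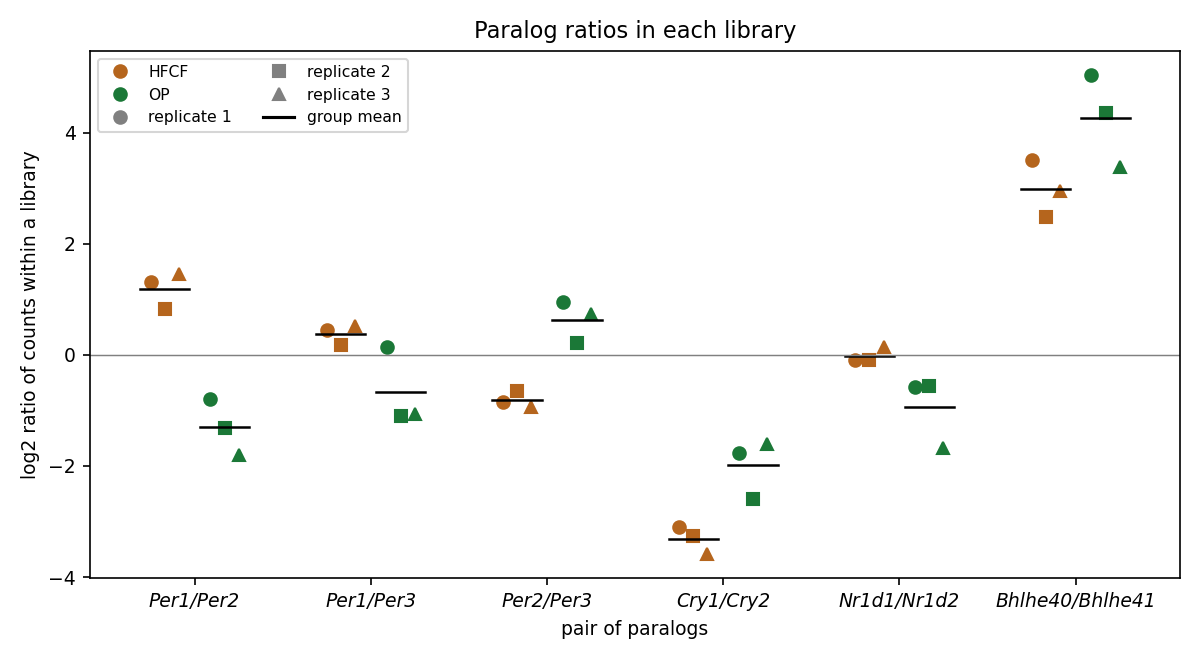
Log2 ratio of the counts of 2 paralogs within each library (y axis) for 6 pairs (x axis), with HFCF in brown, OP in green, symbols by replicate number and black lines at group means. Per1/Per2 changes sign between the groups, from 0.83 or more in HFCF to -0.80 or less in OP, and only Bhlhe40/Bhlhe41 overlaps.

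Levels can be compared between genes only per length, so CPM were divided by exon length in kilobases (GENCODE M21). In HFCF, Nr1d1 was the highest at 30.2 ± 4.69 CPM per kb, followed by Nr1d2 (17.3 ± 1.18), Ciart (13.1 ± 3.77), Per1 (12.8 ± 2.44), Bhlhe40 (9.16 ± 1.6), Cry2 (7.93 ± 0.766), Per3 (5.72 ± 0.519), Per2 (5.34 ± 0.373), Cry1 (1.5 ± 0.106) and Bhlhe41 (0.832 ± 0.24). Library values of neighbours in this order overlapped except between Nr1d1 and Nr1d2, Cry2 and Per3, Per2 and Cry1, and Cry1 and Bhlhe41. In OP the top of the order was shared by Nr1d2 (19.1 ± 4.45), Nr1d1 (17.5 ± 3.63) and Per2 (16.3 ± 5.63), whose libraries overlapped. They were not separate from the next genes. Per2 in OP replicate 2 (9.9 CPM per kb) lay below Bhlhe40 in OP replicate 1 (12.9), and Ciart reached 17.7 in OP replicate 1. Bhlhe40 (10.5 ± 2.49), Ciart (10.3 ± 6.52), Per1 (7.14 ± 3.68) and Per3 (6.20 ± 1.16) followed, each overlapping the next. Cry2 (4.25 ± 1.07), Cry1 (2.06 ± 0.71) and Bhlhe41 (0.389 ± 0.132) came last and were separate from Per3 and from each other. The gap was narrow, with Cry2 at 5.09 in OP replicate 1 and Per3 at 5.19 in OP replicate 2. Cry2 overlapped Per1, which stood at 4.11 in OP replicate 2. By mean, Per2 thus stood in place 8 of 10 in HFCF and in place 3 in OP.

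The 3 OP libraries differed from each other in which repressors were high. OP replicate 1 was above the OP mean for Ciart (by 0.97 on the log2 scale), Per1 (0.78) and Cry1 (0.51), and OP replicate 2 was below it for Ciart (-0.71), Per1 (-0.67), Per2 (-0.65) and Cry1 (-0.46). OP replicate 3 was above the mean for Bhlhe41 (0.50), Per2 (0.38), Nr1d2 (0.37) and Per3 (0.28) and below it for Cry2 (-0.44), Bhlhe40 (-0.38) and Nr1d1 (-0.37). The HFCF libraries lay closer together: deviations ran from -0.27 to 0.28 in all genes except Ciart (up to 0.45) and Bhlhe41 (down to -0.53). HFCF replicates 1 and 2 were the most alike pair of a group over all genes. The chi-square per degree of freedom between their counts was 46.2, against 148 to 350 for the other pairs within a group. Whether these replicates came from separate animals is not given. For all 10 genes the SD of log2 CPM was larger in OP than in HFCF, which held for 58.0% of all tested genes. The ratio of the SDs was largest for Per2, at 0.102 in HFCF and 0.569 in OP.

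Genes with the most similar pattern over the 6 libraries were found by the root mean square difference of log2 CPM, each gene centred on its own mean, among 4230 candidate genes. Nearest to Per2 were Ddit3 (difference 0.129), a transcription factor gene of the cellular stress response, Saa4 (0.145), a serum amyloid A gene, and Dnajb1 (0.188), a cochaperone gene of the heat shock response. Ddit3 stood at 6.95, 7.21 and 7.58 CPM in HFCF and 20.8, 14.3 and 26.7 CPM in OP, with OP replicate 2 the lowest of its group. Nearest to Nr1d1 were Rsrp1 (0.0417), an arginine and serine rich protein gene, Hnrnpa1 (0.0744), a splicing regulator, and Hmgb3 (0.0882), a chromatin protein gene. Nearest to Cry2 were Rsrp1 (0.0635), the calcium-dependent kinase gene Camk1d (0.0867) and Nr1d1 itself (0.0887). Rsrp1 stood at 628, 648 and 778 CPM in HFCF and 441, 426 and 290 CPM in OP, the same order of libraries as Nr1d1. The measure favours genes with the same difference between the groups, so the likeness is a description over 6 libraries. Lows and orders of libraries that these genes share with the members follow from how they were picked. They are no separate observations.

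**Figure D5:**
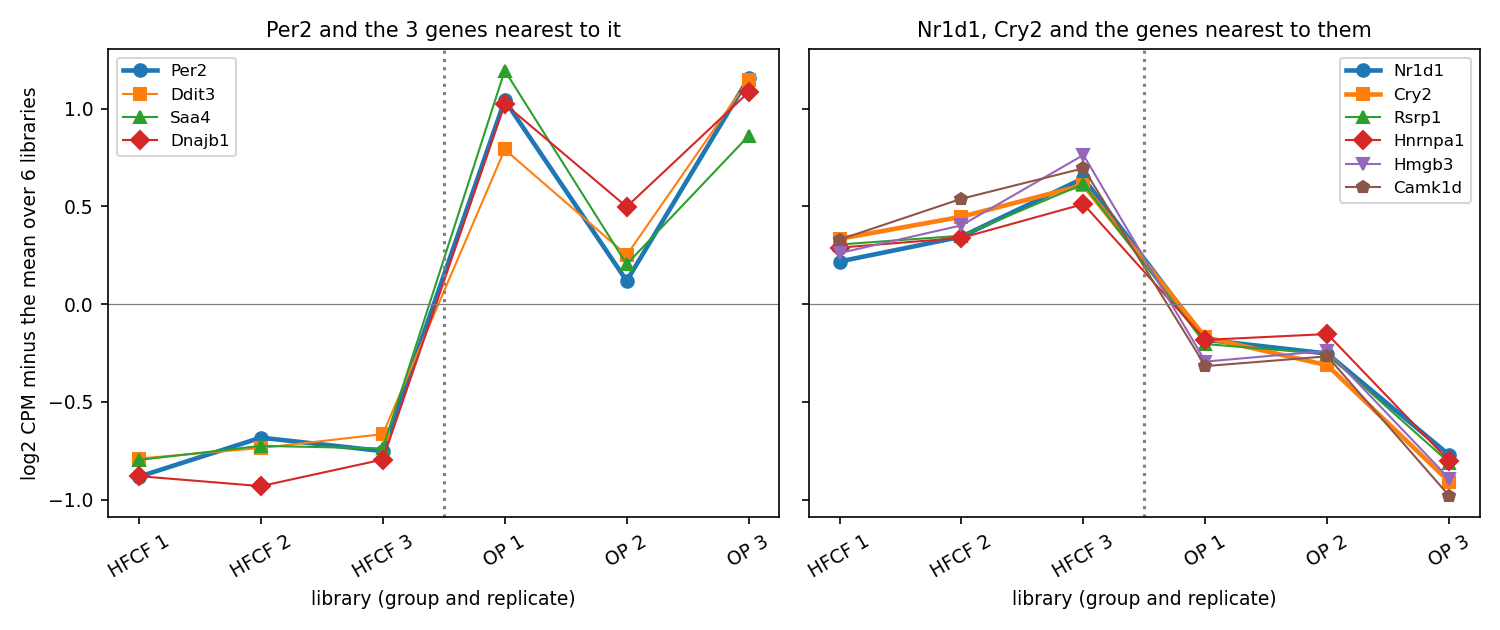
Log2 CPM minus each gene's mean over the 6 libraries (y axis) in each library (x axis; lines only join the values of a gene). Left, Per2 with Ddit3, Saa4 and Dnajb1, picked for their likeness to it, which dip together in OP replicate 2. Right, Nr1d1 and Cry2 with Rsrp1, Hnrnpa1, Hmgb3 and Camk1d, picked likewise, which are lowest in OP replicate 3.

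Genes of the other limb of the clock and of its direct outputs were read in the same fit, which called 6.73% of all tested genes, so lists this short can hold no call by the background share alone. Among the activators, such as Bmal1 and Clock, 0 of 5 tested genes were called by edgeR; 1 had an unadjusted p under 0.05, and DESeq2 and limma-voom called 0. Bmal1, named here after its values were seen because REV-ERB represses it, stood at 2.55, 2.04 and 1.9 CPM in HFCF and 1.43, 1.45 and 1.37 CPM in OP (log2 -0.61; edgeR adjusted p = 0.233), with all OP libraries below all HFCF libraries, as for Nr1d1. Of Dbp, Tef, Hlf and Nfil3, output genes of the PAR bZIP family and their antagonist, 0 of 4 were called by edgeR and 1 had an unadjusted p under 0.05; limma-voom called 0 and DESeq2 called 1, Dbp. Dbp, a direct E-box output, stood at 169, 178 and 194 CPM in HFCF and 129, 138 and 134 CPM in OP (edgeR adjusted p = 0.0766).

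Of 5 other E-box outputs 3 rose in OP and none fell, with a median log2 change of 1.08 against 0.02 over all tested genes. Of all tested genes 3.26% were called higher. The list does not hold every E-box driven gene. Dbp, counted above with the PAR bZIP genes, had a log2 change of -0.43. The clock repressors had 5 log2 changes above 0 and 5 below. Tsku, a gene of a secreted protein made by liver, stood at 29.3, 25.9 and 29.8 CPM in HFCF and 271, 144 and 203 CPM in OP (log2 2.86 ± 0.236; edgeR adjusted p = 0.00193). Wee1, a kinase gene that brakes entry into mitosis, rose from 4.42 ± 0.694 to 11.9 ± 1.01 CPM and Tspan4, a tetraspanin gene, from 34.7 ± 1.91 to 64.8 ± 9.46 CPM. Tsku stayed called whichever single library was dropped. Wee1 lost its call without HFCF replicate 2 and Tspan4 without HFCF replicate 1 or 2, and the count of called genes ran from 1 (without HFCF replicate 2) to 4. Under a mitochondrial covariate only Tsku was called; the edgeR adjusted p was 0.0719 for Wee1 and 0.0780 for Tspan4.

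The edgeR counts for genes that act on or with the repressor proteins, given next, lie near the 6.73% called over all tested genes. By those counts alone the lists show nothing particular. Of 15 kinase, phosphatase and ubiquitin ligase genes that act on PER and CRY, 0 were called by edgeR, 3 had an unadjusted p under 0.05, limma-voom called 0 and DESeq2 called 1 higher, Fbxl21, and 1 lower. Their median log2 change was 0.01. Fbxl21, a ubiquitin ligase gene for cryptochromes, had the smallest p, at 3.85 ± 0.78 CPM in HFCF and 6.91 ± 1.46 CPM in OP (edgeR adjusted p = 0.0758). Of 14 corepressor genes 1 rose and none fell. It was Cipc, whose protein binds CLOCK and inhibits it, from 24.6, 21.1 and 43.3 CPM to 62.8, 59.3 and 98.1 CPM (log2 1.31 ± 0.304; edgeR adjusted p = 0.0415), and of the 6 fits with 1 library left out, it was called only in that without HFCF replicate 3. Under a mitochondrial covariate its edgeR adjusted p was 0.195. Of 16 genes repressed by REV-ERB, 1 fell and none rose, with a median log2 change of 0.11. It was Cyp7a1, which encodes the enzyme that limits bile acid synthesis (log2 -1.14), which was not called in the fits that left out HFCF replicate 1, HFCF replicate 2 or OP replicate 1. Its edgeR adjusted p was 0.191 under a mitochondrial covariate. Of the 16 genes, 7 had an unadjusted p under 0.05, a level that at least 3742 of the 17394 tested genes reached. By limma-voom 1 was called higher and 2 lower. DESeq2 called 2 higher and 4 lower. Over all 17394 tested genes limma-voom called 1319 and DESeq2 2534.

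Genes that share known inducing signals with the repressors were counted in the same fit, which called 3.26% of all tested genes higher and 3.47% lower in OP. That fit called 1170 genes in all. The total was 112 without HFCF replicate 1, 88 without HFCF replicate 2 and 203 without OP replicate 1. Under a mitochondrial covariate it was 207. Smaller list counts in those fits, here and for the lists that follow, stand beside these smaller totals. Per2 is known to be inducible by heat shock factor, and of 13 heat shock and temperature responsive genes 7 rose and 2 fell, with a median log2 change of 0.92. Hspa1b, Hspa1a and Dnajb1 rose by 4.01, 4.37 and 1.76 on the log2 scale, while Cirbp, a cold-inducible RNA-binding protein gene, fell by 1.74. Dnajb1 was lowest in OP replicate 2 among the OP libraries, at 21.6 CPM against 31.1 and 32.5. It was picked above for its likeness to Per2, so a low shared with Per2 is no separate observation. Whether heat shock factor acted on Per2 was not tested. The number that rose was 3, and the number that fell 1, without HFCF replicate 1 or 2, and 5 or 6 rose without any other library; Hspa1a, Hspa1b, Dnajb1 and Cirbp kept their calls in all 6 of these fits. Under a mitochondrial covariate 5 rose and 2 fell, with these 4 genes again called. Hspa1a and Hspa1b are near-identical copies, so the split of reads between them is uncertain.

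Per1 is known to be inducible by cAMP signalling and glucocorticoids. Of 12 tested CREB-responsive genes 4 fell and none rose (median log2 change -1.16): Ppargc1a, a coactivator of fasting metabolism (-2.25), Sik1 (-1.23), Junb (-1.97) and Irs2 (-1.10). Ppargc1a stayed called whichever single library was dropped, and the count fell to 1 without HFCF replicate 1 or OP replicate 1 and to 2 without HFCF replicate 2. Under a mitochondrial covariate only Ppargc1a was called; the edgeR adjusted p was 0.0600 for Junb, 0.124 for Sik1 and 0.278 for Irs2. Of 12 glucocorticoid receptor targets 3 fell and 1 rose, with 9 log2 changes below 0 and 3 above (median -0.70). Mt2 (-2.80) and Mt1 (-1.92), metallothionein genes, and the kinase gene Sgk1 (-1.22) fell, while Lcn2, a secreted acute phase gene, rose (1.0; edgeR adjusted p = 0.0495). Of these 4, only Mt2 stayed called whichever single library was dropped, and the number that fell was 1 in the fits that left out HFCF replicate 1, HFCF replicate 2 or OP replicate 1. Under a mitochondrial covariate Mt1 and Mt2 were called, and Sgk1 (edgeR adjusted p = 0.163) and Lcn2 (0.262) were not. In hypoxia, which is known to induce Bhlhe40 and Bhlhe41, 0 of 9 tested genes were called by edgeR, 0 had an unadjusted p under 0.05, DESeq2 and limma-voom called 0, and the median log2 change was 0.11; Slc2a1, a glucose transporter gene, had the smallest p (edgeR adjusted p = 0.199).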

How the data were processed

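Per the labels' protocols, poly(A) RNA from liver was made into strand-marked (dUTP) paired-end libraries. Cutadapt 1.9, FastQC and the build GRCm39 are named, per the submitters' processing notes; no aligner or counting program is given there. The authors deposited raw counts for 55401 genes, of which 27893 had any count; 55141 gene identifiers matched a symbol. The R package edgeR 4.0.16 (R 4.3.3) kept 17394 genes (filterByExpr), scaled libraries by TMM and applied the quasi-likelihood test with group alone, two-sided, with Benjamini-Hochberg adjustment at 0.05. Each SE is the log2 change over the square root of F. CPM use TMM-scaled library sizes; log2 ratios added 0.5 to each count. No deposited column was left unused. The edgeR fit was tested on simulated data.

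All 10 members are named; from each other list, called genes, or the gene with the smallest p where none was called, up to 4 by p; the genes whose exons overlap a member; and the 3 genes nearest to Per2, Cry2 and Nr1d1, the members with the smallest p, among genes with a mean of at least 1 CPM and a log2 range of at least 1. Some genes that this rule selects are not reported here. The members, lists and rules were chosen with earlier results of these data known. Alternatives used DESeq2 1.42.0, limma 3.58.1 (voom), other scalings, filters and thresholds, covariates, a replicate block and single libraries left out. The 3-count floor covers counting error only.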

Additional observations from a re-analysis of the deposited data

How the results depend on the processing

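The number of clock repressors called higher was 1 and the number called lower was 2. The number lower was 4 with DESeq2, which added Per1 and Bhlhe41, and 0 with total counts as the scale or with no low-count filter. At an adjusted p under 0.01, 0 rose and 0 fell, and with a fold of at least 2 required, 0 fell. With the mitochondrial share as a covariate 0 rose and 2 fell. Leaving out single libraries gave 0 to 1 higher and 0 to 1 lower. RLE or upper quartile scaling, robust dispersion, limma-voom, a filter at 1 CPM, leaving out mitochondrial genes, dividing counts by 4 and summing overlapping genes kept 1 higher and 2 lower. With the mitochondrial covariate Bhlhe40 was -0.30 (log2), Ciart -0.98, Per1 -1.105, Bhlhe41 -1.01, Cry1 0.55, Nr1d2 0.39 and Per3 0.27, none of them called in that fit. Without single libraries, Per3 ran from -0.036 (without OP replicate 3) to 0.232 and Nr1d2 from -0.064 (without OP replicate 3) to 0.254. Bhlhe40, Per3 and Nr1d2 were not called in any fit. The cause of these changes was not tested. All paralog ratios kept their sign in 48 of 48 alternatives, which left out a single library or changed the amount added to each count. For every pair but Bhlhe40/Bhlhe41 the groups did not overlap, so leaving out a library could not change the sign. At these counts the amount added could hardly change it either. The tally is therefore no added support for the ratios. Over all genes, 1170 were called, against 2534 with DESeq2, 698 with no filter, 207 with the mitochondrial covariate, 592 with a 2-fold minimum, 2552 and 164 at adjusted p under 0.1 and 0.01, and 88 to 1310 without single libraries. Among 16 genes repressed by REV-ERB, DESeq2 called 2 higher and 4 lower against 0 and 1, and among CREB-responsive genes 7 lower against 4; these counts for lists were added after the data were seen.

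With the replicate block 0 clock repressors rose, 0 fell and 180 genes were called; Per2 was 1.55 (adjusted p = 0.0671), Cry2 -0.93 (0.125) and Nr1d1 -0.80 (0.165). Libraries of the same number did not deviate together (correlations 0.0229, -0.126 and -0.164), and not every library correlated best with its own number, so the numbers were not taken as pairs.

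Bhlhe41 and Cry1 were the members with the fewest counts; dividing counts by 4 changed the call of neither.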
